A study of Mus musculus with 3 samples.

Results

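Complement was described here through 9 genes of the mouse aorta: the chains of the recognition molecule C1q (C1qa, C1qb, C1qc), the components C4b and C3, the alternative pathway genes Cfb and Cfp, and the receptors C3ar1 and C5ar1. The 9 genes were taken by symbol from the 32285 genes of the deposited tables, and each was found once. Their transcripts were counted by droplet-based single-cell RNA sequencing of the infrarenal aorta of wild-type mice, in 3 libraries with 1 library per group: AAA_14, AAA_7 and Sham. AAA_14 is an aneurysm library labelled with elastase, an enzyme applied to the aorta to damage its elastic fibres. AAA_7 carries an aneurysm title but a PBS treatment label, and is named here by that title, the library titled AAA_7. Sham is labelled with PBS. The unit of the 7 and 14 in the titles, and the strain, age and sex of the mice, were not stated in the labels. In every group the vessels were flushed with PBS, the aortas were digested with collagenases, hyaluronidase and DNase, and cells were selected with CD45 and viability microbeads. The aortas of a group were pooled, 20 for aneurysm and 50 for control, with no number stated for AAA_7 alone. Each library is therefore 1 sample, no difference below has a replicate check, and no p-value was computed. Intervals are 95% intervals that cover counting error only.

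Complement is a cascade of plasma and tissue proteins that tags particles for uptake and draws in leukocytes. C1q recognises antibody and dying cells and starts the classical pathway through C4 and C2, while factor B and properdin build and stabilise the C3-cleaving enzyme of the alternative pathway. Both routes meet at C3, whose small fragment C3a is sensed by C3aR1, and C5a, released further down, is sensed by C5aR1 on neutrophils and macrophages. Most complement in blood is made in the liver, whereas tissue macrophages are a well-known source of C1q and stromal cells of C3 and C4.

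In GRCm38 with the GENCODE vM21 annotation, C1qa (ENSMUSG00000036887), C1qb (ENSMUSG00000036905) and C1qc (ENSMUSG00000036896) lie side by side within 18.7 kb at chr4:136880129-136898803, all on the minus strand. C4b (ENSMUSG00000073418, chr17:34728380-34743882) and Cfb (ENSMUSG00000090231, chr17:34856374-34862518) lie 112 kb apart on chromosome 17, which also carries C3 (ENSMUSG00000024164, chr17:57203970-57228136). C3ar1 (ENSMUSG00000040552) is at chr6:122847138-122856161, C5ar1 (ENSMUSG00000049130) at chr7:16246743-16259540 and Cfp (ENSMUSG00000001128) at chrX:20925454-20931555. Cfb overlaps the readthrough gene Gm20547 on the same strand, which is not among the genes of the files. C4b has a near-identical copy, C4a, so its counts depend on how reads were shared between them: over all barcodes C4b had 5025, 1270 and 11 UMIs in AAA_14, AAA_7 and Sham, and C4a had 30, 3 and 2.

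Sequences upstream of the start were available for 6 of the 9 genes in RefSeq for GRCm38.p6. They are shown for C1qb and C1qc, neighbours whose counts went together below, and for C3, whose pattern over cell types was another one. Capitals mark matches to GAGGAA or its reverse complement TTCCTC, the core bound by the myeloid factor PU.1, and to TTGCNNAA or its reverse complement TTNNGCAA, the motif of C/EBP factors, each searched in the 250 bases before the start on both strands. GAGGAA began 30 bases before the start of C1qb, TTCCTC 193 bases before that of C1qc, and TTGCGAAA 45 bases before that of C3. All 3 sequences read from the minus strand, from chr4:136886201-136886450 for C1qb, chr4:136893066-136893164 for C1qc and chr17:57228137-57228386 for C3. For C1qc the 151 bases next to the start, which lie inside the gene in the GENCODE annotation, are not printed, so the printed stretch is the far 99 bases of the 250.
C1qb: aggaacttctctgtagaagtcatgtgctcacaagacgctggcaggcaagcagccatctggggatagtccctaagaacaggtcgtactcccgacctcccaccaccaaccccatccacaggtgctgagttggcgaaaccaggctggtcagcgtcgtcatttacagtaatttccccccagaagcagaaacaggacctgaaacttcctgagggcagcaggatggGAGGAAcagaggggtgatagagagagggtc
C1qc: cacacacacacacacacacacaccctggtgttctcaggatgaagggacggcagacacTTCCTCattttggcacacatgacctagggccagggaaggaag
C3: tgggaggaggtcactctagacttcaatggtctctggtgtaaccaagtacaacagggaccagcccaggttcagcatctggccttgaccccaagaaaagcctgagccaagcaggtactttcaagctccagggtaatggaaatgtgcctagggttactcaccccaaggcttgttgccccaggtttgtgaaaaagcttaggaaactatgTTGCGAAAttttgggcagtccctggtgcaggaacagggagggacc
The first motif was in 2 of the 6 sequences and in 23.3% of 32851 mouse promoters of the same length, and the second in 1 of the 6 and in 9.56% of them. The sequences of C3ar1, C5ar1 and Cfp, which are not printed, had neither motif, so only sequences with a match are printed. A match describes the letters and does not show that a factor binds there.

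The files held 10108, 3496 and 3785 barcodes for AAA_14, AAA_7 and Sham, with 67243700, 13341534 and 13677839 UMIs (unique molecular identifiers, the molecules counted). Barcodes with at least 200 genes and at most 10% mitochondrial UMIs were kept, 5286, 3229 and 1235 of them, 9750 of 17389 in all. The mitochondrial limit took 47.2% of AAA_14, 7.52% of AAA_7 and 66.9% of Sham barcodes, and the kept cells had medians of 6967.5, 2581 and 3659 UMIs. The libraries shared between 5 and 12 barcodes in pairs, 1 to 8 of them after the filters. Ptprc, which encodes CD45, had a UMI in 93.5%, 84.0% and 92.5% of kept cells. Cells were clustered without complement genes and named from marker genes, which gave 1126, 992 and 11 phagocytes (macrophages and monocytes) in AAA_14, AAA_7 and Sham, 768, 687 and 103 neutrophils, and 435, 215 and 41 dendritic cells. There were 924, 559 and 440 T cells, 1257, 454 and 420 B cells, and 41, 7 and 3 fibroblasts that had come through the selection. With 11 cells, Sham phagocytes were too few to compare, and their values are given as description. Of these 11, 10 fell in a cluster named from monocyte markers (cluster 11) and 1 in a macrophage cluster (cluster 13). The Sham phagocyte values below thus describe mostly monocytes, and a 0 there does not describe Sham macrophages.

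Summed over all kept cells, all 9 genes were lowest in Sham. C1qa stood at 981 CPM (counts per 1000000 UMIs) in AAA_14, 1427 CPM in AAA_7 and 2.67 CPM in Sham, from 50046, 18607 and 16 UMIs. C3ar1 was at 85.5, 156 and 0.501 CPM and Cfb at 78.7, 134 and 0.501 CPM in the same order, each with 3 UMIs in Sham. C3 and C5ar1 had the smallest gaps, with C3 at 174, 153 and 25.9 CPM and C5ar1 at 130, 255 and 34.6 CPM in AAA_14, AAA_7 and Sham. In such sums, fewer cells of a type and less RNA per cell cannot be told apart: phagocytes made up 21.3% of AAA_14, 30.7% of AAA_7 and 0.891% of Sham cells, and the 13 macrophage markers summed to 5271, 7348 and 123 CPM.

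Over all cells, AAA_14 exceeded Sham at least 2-fold for 9 of the 9 genes, where 29.9% of 16010 genes did so, and 0 of 9 were at least 2-fold lower, where 8.54% were. The log2 ratio (with 0.5 counts added) ran from 1.91 (1.71 to 2.12) for C5ar1 to 8.48 (7.82 to 9.33) for C1qa, with a median of 7.07 beside 0.37 over all genes. AAA_7 exceeded Sham at least 2-fold for 9 of 9, where 26.8% of 13717 genes did so and 10.3% were at least 2-fold lower, with a median of 7.84 beside 0.23, and both comparisons rest on the same Sham library. Between AAA_14 and AAA_7, 0 of 9 genes reached 2-fold higher, where 11.2% of 16136 genes did so, and 0 of 9 reached 2-fold lower, where 6.09% did so. The median there was -0.52 beside 0.10 over all genes, and C3 was the 1 gene of the 9 above 0, at 0.18 (0.11 to 0.26). These directions were not stable: C3 was at -0.06 with a mitochondrial limit of 20%, -0.10 with no limit, -0.11 with cells thinned to 1000 UMIs and -0.22 without stromal clusters, while thinning put C1qb at 0.15 and C4b at 0.27. Within Sham, 106 of 155 C3 UMIs and 179 of 207 C5ar1 UMIs came from the 136 barcodes with at most 5% mitochondrial UMIs, and with a limit of 5% the log2 ratio over Sham turned to -1.06 for C5ar1 in AAA_14, and to -0.27 for C5ar1 and -0.29 for C3 in AAA_7.

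**Figure D1:**
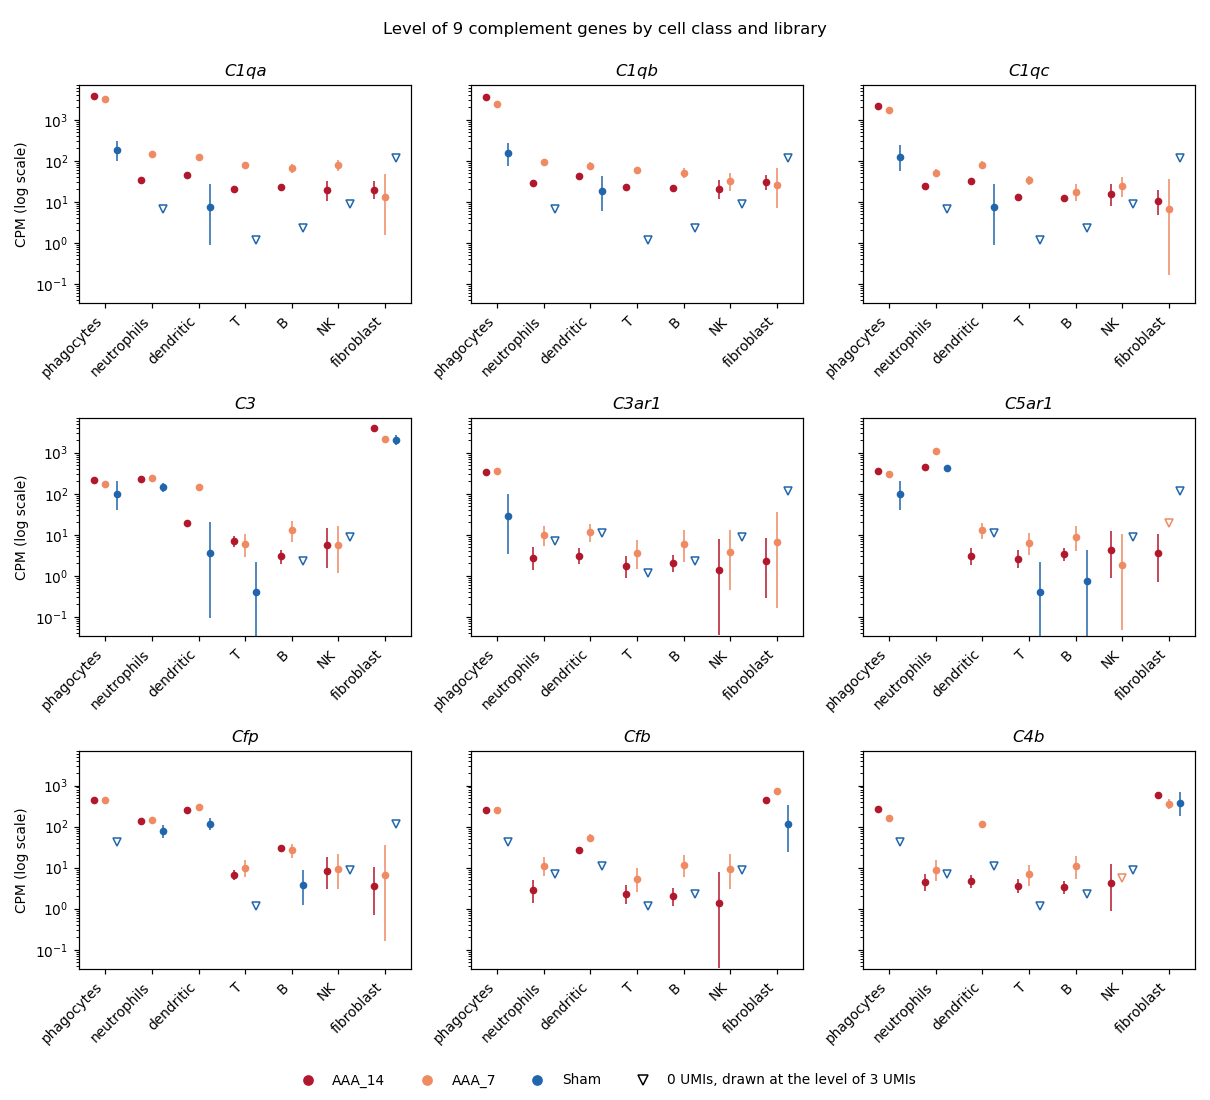
Level of each of the 9 genes (CPM, log axis) in 7 cell classes of AAA_14, AAA_7 and Sham; points are 1 library each, bars are exact Poisson 95% intervals, open triangles mark 0 UMIs at the level 3 UMIs would give, and classes with under 3 cells in a library are left out. The C1q chains and C3ar1 stood highest in phagocytes, C5ar1 in neutrophils and C3 in fibroblasts, in AAA_14 and AAA_7 alike.

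The C1q chains were macrophage transcripts in these libraries. C1qa was at 3823 CPM (3789 to 3858) in AAA_14 phagocytes, 3152 CPM (3106 to 3200) in AAA_7 phagocytes and 181 CPM (96.6 to 310) in the 11 Sham phagocytes. All 13 UMIs of the Sham phagocytes came from 1 cell, so the other 10 had none. As 10 of the 11 were monocytes of cluster 11, this level is not one of Sham macrophages. Phagocytes held 93.0% of the C1qa UMIs of AAA_14 and 92.8% of those of AAA_7. Within each aneurysm-titled library, no other class overlapped the phagocytes in level.

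A C1qa UMI was found in 77.8% (75.3 to 80.2) of AAA_14 phagocytes, 71.7% (68.8 to 74.5) of AAA_7 phagocytes and 9.09% of Sham phagocytes. B cells, which are not known to make C1q, had one in 166 of 1257, 59 of 454 and 0 of 420 cells, and T cells in 14.5%, 16.5% and 0% of cells, where 0 of 420 Sham B cells allows up to 0.714% and 0 of 440 Sham T cells up to 0.682%. Median depths were 9975, 4687 and 5502 UMIs in phagocytes, 4398, 1821 and 2366 in B cells and 6236.5, 2724 and 4348.5 in T cells of AAA_14, AAA_7 and Sham. Thinned to 1000 UMIs per cell, the shares with C1qa were 72.8%, 65.0% and 9.09% in phagocytes and 2.83%, 7.89% and 0% in B cells. In AAA_14 and AAA_7, C1qa was at 33.1 and 146 CPM in neutrophils, 45.4 and 120 CPM in dendritic cells, 20.6 and 79.5 CPM in T cells and 22.4 and 66.6 CPM in B cells. Neutrophils and dendritic cells were thus between 1.48 and 2.03 times the higher lymphocyte level of their library, and the part of free RNA in these counts was not tested.

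The chains went together from cell to cell. All 3 were found in 74.0% of AAA_14 phagocytes and 59.5% of AAA_7 phagocytes, and none in 17.1% and 20.6%. Across cells, Pearson's r between chains was 0.94 to 0.95 in 1126 AAA_14 phagocytes and 0.79 to 0.82 in 992 AAA_7 phagocytes, as a description of cells that share a library. With cells thinned to 1000 UMIs, all 3 chains were found in 61.9% of 1117 AAA_14 and 45.3% of 888 AAA_7 phagocytes, and r was 0.73 to 0.83 and 0.63 to 0.72. Of the C1q UMIs of phagocytes, C1qb made up 37.0% (36.7 to 37.3) in AAA_14 and 33.3% (32.8 to 33.8) in AAA_7.

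Phagocytes were not uniform for C1q. In AAA_14, C1qa was at 6055 CPM in cluster 4, led by Ccl8, Fcrls and Apoe, at 5856 CPM in cluster 16, led by Retnla, Cd209f and Lyve1, at 4251 CPM in cluster 13 (Ccl7, Ccl2, Il10), and at 4217 CPM in cluster 12 (Slamf9, Ms4a7, Cd72). It was lower in cluster 22 (Mmp12, Gpnmb, Arg1) at 2909 CPM and in cluster 5 (Thbs1, Flrt3, Adora2b) at 929 CPM, and lowest in the monocytes of cluster 11 (Plac8, Ly6i, Ear2) at 242 CPM. In AAA_7 the same clusters, in the order 4, 16, 13, 12, 22, 5 and 11, were at 5683, 6292, 3694, 3775, 1688, 989 and 120 CPM. In both libraries the macrophage clusters 4 and 16 were at the top and the Thbs1 cluster and the monocytes at the bottom. The mix of clusters differed: cluster 5 held 53 of 1126 phagocytes in AAA_14 and 450 of 992 in AAA_7, and cluster 11 held 243 and 22.

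C4b encodes the classical pathway component that C1 cleaves after C1q has bound. It was at 273 CPM (264 to 283) in AAA_14 phagocytes and 166 CPM (155 to 177) in AAA_7 phagocytes, and at 0 UMIs in the 11 Sham phagocytes. In fibroblasts it was at 574 CPM in 41 AAA_14 cells, 358 CPM in 7 AAA_7 cells and 384 CPM in 3 Sham cells, and those 3 cells held all 10 Sham UMIs. Among phagocytes, C4b was highest in the Lyve1 cluster 16, at 676 CPM in AAA_14 and 709 CPM in AAA_7. By level it was lowest in the monocytes of cluster 11, at 66.7 and 10.9 CPM, the latter from 1 UMI. The intervals of cluster 11 overlapped those of clusters 5 and 12 in both libraries. T cells were at 3.63, 6.84 and 0 CPM. Shares of phagocytes with a C4b UMI were 44.6% and 25.0% in AAA_14 and AAA_7, against 2.71% and 2.15% of T cells.

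**Figure D2:**
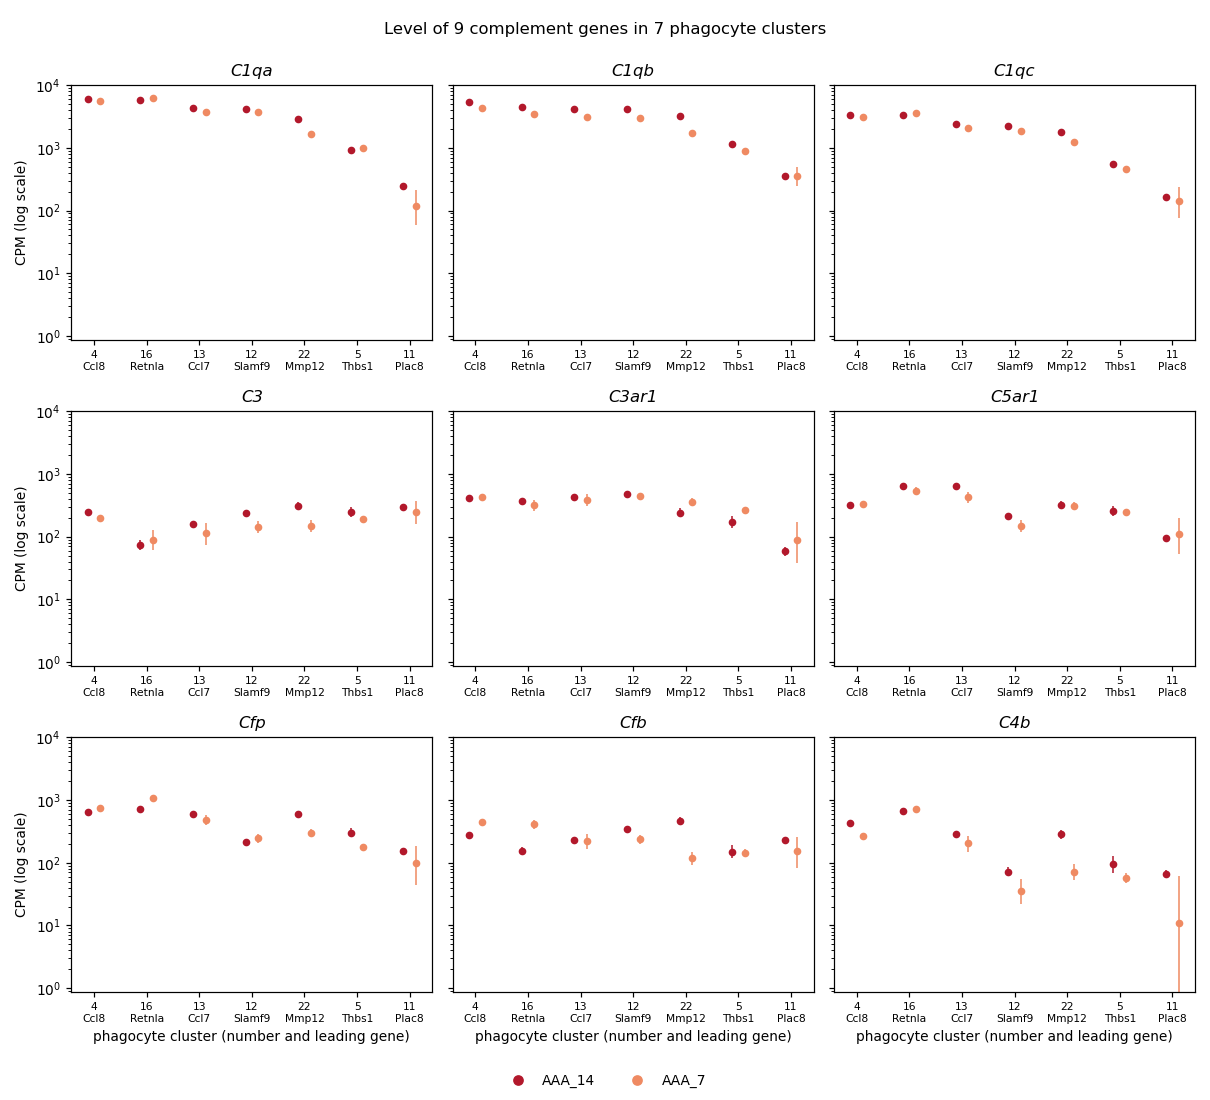
Level of the 9 genes (CPM, log axis) in the 7 phagocyte clusters of AAA_14 and AAA_7, each cluster given by number and leading gene and ordered by its C1qa level in AAA_14; points are 1 library, bars are exact Poisson 95% intervals. C1q was lowest in the monocytes of cluster 11, while C3 was there at 296 CPM in AAA_14 and 250 CPM in AAA_7. C4b was also lowest there by level, with intervals that overlapped those of cluster 12.

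C3, the hub of the cascade, had another distribution. It was highest in fibroblasts, at 4013 CPM (3880 to 4150) in AAA_14, 2192 CPM (1964 to 2439) in AAA_7 and 2033 CPM (1523 to 2659) in Sham. These 41, 7 and 3 cells held 38.8%, 16.9% and 34.2% of the C3 UMIs of their libraries, and 60.4% of the Sham fibroblast UMIs came from 1 cell. Ptprc was at 57.1, 32.5 and 38.4 CPM in these cells, against 716 and 605 CPM in AAA_14 and AAA_7 phagocytes, so they carried little CD45 transcript.

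Among leukocytes, C3 was at 228, 237 and 144 CPM in neutrophils of AAA_14, AAA_7 and Sham, and at 219, 175 and 97.7 CPM in phagocytes. Neutrophils and phagocytes did not differ beyond their intervals in AAA_14, whereas in AAA_7 neutrophils were higher. T cells were at 6.96, 5.79 and 0.396 CPM, and a C3 UMI was found in 39.6%, 30.9% and 32.0% of neutrophils, against 4.76%, 1.97% and 0.227% of T cells. Granulocyte precursors, cluster 26 with the early granule gene Elane, were at 559, 447 and 278 CPM in 44, 7 and 13 cells. Neutrophils of cluster 14, with the granule genes Ltf and Ngp, were at 382, 190 and 190 CPM, and mature neutrophils of cluster 6, with Csf3r and Retnlg, at 89.4, 83.7 and 59.3 CPM. Neutrophils of cluster 2, with the inflammatory genes Acod1 and Csf1, were at 151 CPM in AAA_14 and 247 CPM in AAA_7. Within each library the precursors were highest and cluster 6 lowest by level. The intervals of precursors and cluster 14 overlapped in Sham, and those of cluster 6, with 4 UMIs, and cluster 14 overlapped in AAA_7. In phagocytes C3 was lowest in the Lyve1 cluster 16, at 73.7 and 89.4 CPM in AAA_14 and AAA_7, which was among the highest clusters for C1qa.

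Cfb encodes factor B, the protease of the alternative pathway C3 convertase. It was at 259 CPM in phagocytes of both AAA_14 (251 to 269) and AAA_7 (246 to 273), and at 0 UMIs in the 11 Sham phagocytes. Fibroblasts were at 450, 741 and 115 CPM in AAA_14, AAA_7 and Sham and held all 3 Sham UMIs. The endothelial cells of cluster 29 were at 55.8 CPM in 25 AAA_14 cells and 787 CPM (569 to 1060) in 8 AAA_7 cells, where 22 of the 43 UMIs came from 1 cell. Neutrophils were at 2.78, 11.2 and 0 CPM and T cells at 2.32, 5.26 and 0 CPM. A Cfb UMI was found in 58.7% and 47.4% of AAA_14 and AAA_7 phagocytes, against 1.62% and 1.07% of T cells. The equal phagocyte totals hid unequal clusters. Cluster 22, led by Mmp12, was at 470 CPM in AAA_14 and 119 CPM in AAA_7, while the Lyve1 cluster 16 was at 157 and 415 CPM and the Ccl8 cluster 4 at 274 and 444 CPM. In cluster 22 of AAA_14, 92 of the 270 UMIs came from 1 of 26 cells. The dendritic cells of cluster 20, led by Fscn1 and Ccl22, were at 151 and 237 CPM. There 1 cell held 62 of 140 UMIs in AAA_14, and 1 cell held 20 of 63 in AAA_7.

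Cfp encodes properdin, which stabilises that convertase. It was at 455 CPM (443 to 467) in AAA_14 phagocytes and 435 CPM (418 to 453) in AAA_7 phagocytes, and at 0 UMIs in the Sham phagocytes. Dendritic cells followed, with 261, 299 and 118 CPM in AAA_14, AAA_7 and Sham, and then neutrophils, with 133, 143 and 77.6 CPM. B cells were at 30.1, 26.4 and 3.77 CPM and T cells at 6.67, 10.0 and 0 CPM. A Cfp UMI was found in 70.1%, 52.6% and 36.6% of dendritic cells, against 4.55%, 3.04% and 0% of T cells, at median dendritic depths of 13344, 6228 and 6459 UMIs. Among dendritic cells it was highest in the Cd209a cluster 9, at 483, 461 and 240 CPM. In phagocytes the Lyve1 cluster 16 was highest, at 729 CPM in AAA_14 and 1064 CPM in AAA_7, and the monocytes of cluster 11 lowest, at 156 and 97.8 CPM.

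C3ar1, the receptor for C3a, was a phagocyte gene. It was at 337 CPM (326 to 347) in AAA_14 phagocytes, 348 CPM (333 to 364) in AAA_7 phagocytes and 27.9 CPM in Sham phagocytes, the last from 2 UMIs of 1 cell. Phagocytes held 93.9% of its UMIs in both AAA_14 and AAA_7. Neutrophils were at 2.78, 9.70 and 0 CPM and T cells at 1.74, 3.69 and 0 CPM, and 0 of 103 Sham neutrophils had a UMI, which allows a share of up to 2.91%. By share, 72.7% of AAA_14 and 59.2% of AAA_7 phagocytes had a UMI, against 1.30% and 1.25% of T cells. The level was 484 and 442 CPM in cluster 12, 428 and 387 CPM in cluster 13, 410 and 432 CPM in cluster 4, and 58.7 and 87.0 CPM in the monocytes of cluster 11. As for C1q, macrophage clusters exceeded monocytes.

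C5ar1, the receptor for C5a, was shared by neutrophils and phagocytes. In neutrophils it was at 441 CPM (421 to 462) in AAA_14, 1112 CPM (1056 to 1170) in AAA_7 and 422 CPM (363 to 488) in Sham. In phagocytes it was at 357, 295 and 97.7 CPM. T cells were at 2.61, 6.32 and 0.396 CPM. A C5ar1 UMI was found in 82.0%, 80.6% and 75.7% of neutrophils, against 1.95%, 2.15% and 0.227% of T cells, and thinned to 1000 UMIs in 38.6%, 63.8% and 32.4% of neutrophils. AAA_7 neutrophils stood apart in level, while AAA_14 and Sham overlapped.

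Among the granulocyte clusters C5ar1 was lowest in the precursors, where C3 was highest. In AAA_14 it was at 67.3 CPM in the precursors, 270 CPM in cluster 14, 533 CPM in cluster 6 and 674 CPM in cluster 2. In AAA_7 these were 86.9, 326, 732 and 1190 CPM, and in Sham the precursors were at 95.8 CPM, cluster 14 at 376 CPM and cluster 6 at 494 CPM, with 1 Sham cell in cluster 2. In phagocytes, C5ar1 was highest in cluster 13 of AAA_14, at 641 CPM (424 CPM in AAA_7), and in cluster 16, at 640 and 531 CPM in AAA_14 and AAA_7, and lowest in the monocytes of cluster 11, at 93.5 and 109 CPM.

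**Figure D3:**
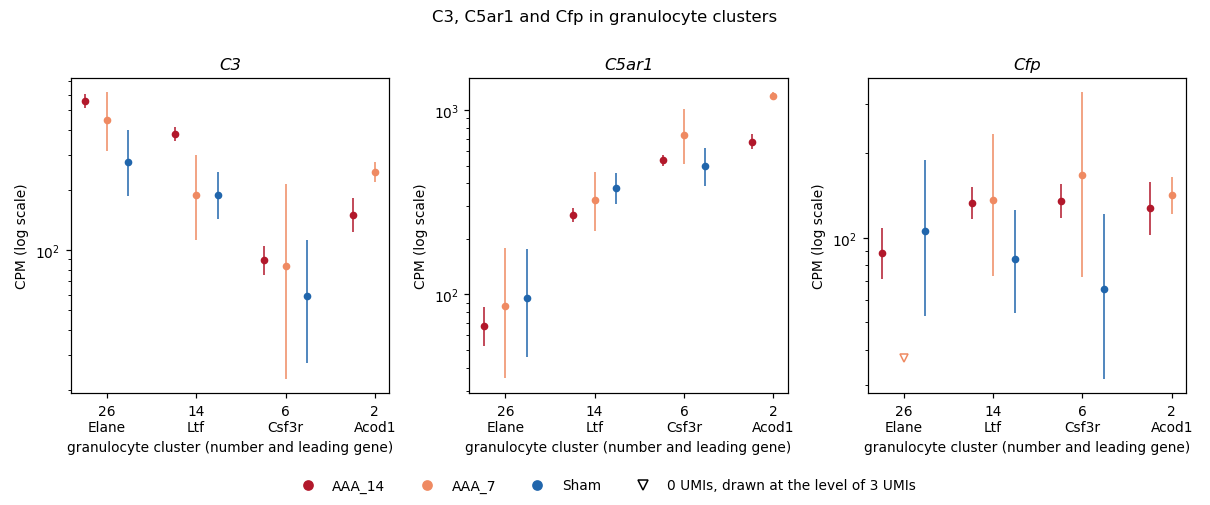
Level of C3, C5ar1 and Cfp (CPM, log axis) in 4 granulocyte clusters of AAA_14, AAA_7 and Sham, from the Elane precursors to the Acod1 neutrophils; points are 1 library, bars are exact Poisson 95% intervals, the open triangle marks 0 UMIs at the level of 3 UMIs, and the 1 Sham cell of cluster 2 is left out. C3 was highest in the precursors and C5ar1 lowest there, in all 3 libraries.

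Phagocytes could be compared between AAA_14 and AAA_7. No member reached 2-fold: 0 of 9 were higher, where 7.68% of 12386 genes were, and 0 of 9 lower, where 3.80% were. The median log2 ratio was 0.28, beside 0.10 over all genes. C4b had the highest ratio, 0.72 (0.62 to 0.83), followed by C1qb at 0.53 (0.50 to 0.56). C1qa was at 0.28 (0.25 to 0.30), C1qc at 0.32 (0.29 to 0.36), C3 at 0.32 (0.22 to 0.43) and C5ar1 at 0.28 (0.19 to 0.36). For C3ar1 at -0.05 (-0.13 to 0.03), Cfp at 0.06 (-0.0045 to 0.13) and Cfb at 0.0025 (-0.09 to 0.09) the intervals held 0.

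Within clusters, weighted equally, the mean ratio of C4b was 0.98, with 6 of 7 clusters above 0. The cluster ratios of C4b ran from -0.07 (-0.27 to 0.14) in cluster 16 to 2.04 (0.12 to 7.93) in cluster 11, with 1 AAA_7 UMI. In cluster 22 the C4b ratio was 1.97 (1.50 to 2.49), where 51 of 164 AAA_14 UMIs came from 1 cell. The mean ratio of C1qb was 0.40, with 6 of 7 above 0, and that of C3ar1 was -0.20, with 3 of 7. Cfb ranged from -1.41 (-1.71 to -1.09) in cluster 16 to 1.98 (1.61 to 2.38) in cluster 22. In cluster 22, 92 of the 270 AAA_14 Cfb UMIs came from 1 cell. AAA_14 phagocytes also had more fibroblast marker RNA, with 54.5 CPM summed over 8 markers against 33.4 CPM in AAA_7, where 7 of 8 were found. At least 3 of these markers were found in 42 of 1126 AAA_14 and 3 of 992 AAA_7 phagocytes, and their part in the ratios of C4b and C3 was not tested. The macrophage markers summed to 19937 CPM in AAA_14 and 15870 CPM in AAA_7.

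**Figure D4:**
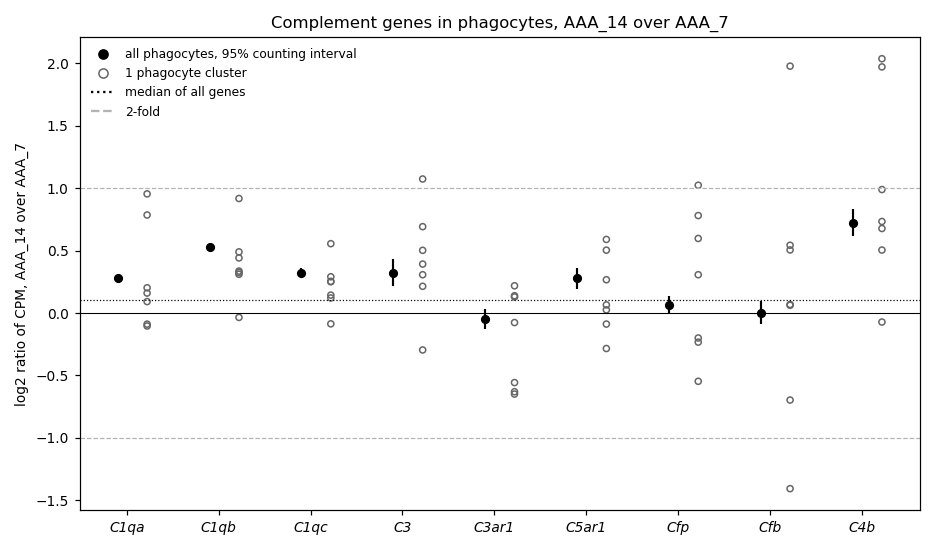
Log2 ratio of CPM, AAA_14 over AAA_7, of the 9 genes in phagocytes; black points are all phagocytes with 95% counting intervals, open circles are the 7 clusters, the dotted line is the median of all genes and the dashed lines mark 2-fold. The points of all phagocytes lie between -0.05 for C3ar1 and 0.72 for C4b, while the clusters of Cfb spread from -1.41 to 1.98. The value of 1.98 is cluster 22, where 1 cell held 92 of the 270 AAA_14 Cfb UMIs.

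In neutrophils, 3 members stood well above the lymphocyte level. For C5ar1 the log2 ratio was 0.06 (-0.16 to 0.29) for AAA_14 over Sham, 1.39 (1.18 to 1.63) for AAA_7 over Sham and -1.33 (-1.43 to -1.23) for AAA_14 over AAA_7. C3 was higher in both libraries than in the shared Sham library, at 0.65 (0.30 to 1.06) for AAA_14 and 0.71 (0.33 to 1.14) for AAA_7, and so was Cfp, at 0.76 (0.28 to 1.33) and 0.86 (0.35 to 1.45). The classes differed in makeup: of the neutrophils, cluster 2 held 184 of 768 in AAA_14, 652 of 687 in AAA_7 and 1 of 103 in Sham, and cluster 6 held 401, 18 and 54. Within cluster 2, C5ar1 was still lower in AAA_14 than in AAA_7, at -0.82 (-0.98 to -0.67). Within cluster 6 it was at 0.58 (-0.06 to 1.16) for AAA_7 over Sham, and within cluster 14 at -0.19 (-0.83 to 0.38). For AAA_14 over Sham, C5ar1 was at 0.10 (-0.23 to 0.47) within cluster 6 and at -0.48 (-0.78 to -0.16) within cluster 14. Within cluster 14, C3 was at 1.00 (0.61 to 1.44) for AAA_14 over Sham and at 0.02 (-0.86 to 0.79) for AAA_7 over Sham. Within cluster 6, C3 was at 0.52 (-0.37 to 1.75) and 0.59 (-1.66 to 2.34) in the same order. Cfp over Sham was at 0.97 (0.13 to 2.12) for AAA_14 and 1.36 (-0.20 to 2.84) for AAA_7 within cluster 6. Within cluster 14 it was at 0.64 (0.05 to 1.33) and 0.72 (-0.40 to 1.73). Median mitochondrial shares of neutrophils were 5.17%, 0.442% and 1.04% in AAA_14, AAA_7 and Sham, and their part in these ratios was not tested.

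The other 6 members were at 0 UMIs in Sham neutrophils. C1qa was at least 4.84-fold higher in AAA_14 and at least 21.3-fold higher in AAA_7 than in Sham, against a floor of 3 counts in the Sham library, but its level there was 1.48 and 1.83 times that of lymphocytes in AAA_14 and AAA_7. With genes at 0 UMIs set to their bound, 3 of 9 members, the C1q chains, were at least 2-fold higher in AAA_14 than in Sham, where 10.8% of 8888 genes were. For AAA_7 over Sham these were 4 of 9, the C1q chains and C5ar1, where 24.0% of 6741 genes were. By the ratio with 0.5 counts added, which is no bound, the counts were 6 of 9 beside 19.0% and 7 of 9 beside 26.3%, since it also took in C3ar1, Cfb and C4b. By that ratio 0 of 9 were lower in AAA_14 than in Sham, where 7.35% of genes were, and 0 of 9 in AAA_7, where 13.9% were. The medians were 1.35 and 3.14, or 0.65 and 0.86 with the genes at 0 UMIs set to their bound, beside 0.13 and 0.21 over all genes. For AAA_14 over AAA_7, 0 of 9 were higher, where 16.3% of 9314 genes were, and 6 of 9 lower, where 12.8% were, with a median of -1.33 beside 0.08. Of those 6, C1qa, C1qb, C1qc, C3ar1 and Cfb were at or near the lymphocyte level.

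In dendritic cells summed as a class, Cfp and Cfb stood well above the lymphocyte level in both libraries. The log2 ratio of AAA_14 over AAA_7 was -0.20 (-0.35 to -0.04) for Cfp and -0.98 (-1.36 to -0.58) for Cfb, which was at 27.5 CPM in AAA_14 and 54.2 CPM in AAA_7. The direction of Cfb turned under other settings, at 0.51 with each cell classed from its own markers and 0.14 with cells thinned to 1000 UMIs. Most Cfb came from 1 cluster: cluster 20 held 140 of 177 dendritic UMIs in AAA_14 and 63 of 81 in AAA_7. Cluster 9 was at 12.6 and 23.2 CPM, cluster 18 at 2.46 and 2.72 CPM, and cluster 23 at 0 UMIs in both. Over the list, 0 of 9 members were at least 2-fold higher, where 9.69% of 11881 genes were, and 6 of 9 lower, where 6.79% were, with a median of -1.41 beside 0.14. With each cell classed from its own markers that median was 0.51, so its direction depends on how cells were classed. Of the 6 lower members, C1qa, C1qc, C3ar1 and C5ar1 were at 0.86 to 2.42 times the higher lymphocyte level of their library. The part of free RNA in their ratios was not tested. C3 was at 19.5 CPM in AAA_14 and 149 CPM in AAA_7, and C4b at 4.67 and 113 CPM. In AAA_7, 5 of the 215 cells had at least 3 fibroblast markers. They held 168 of the 223 C3 UMIs, 156 of the 169 C4b UMIs and 22 of the 81 Cfb UMIs. Without the 9 such cells of AAA_14, C3 was at 17.8 CPM and C4b at 3.50 CPM there, and without the 5 cells of AAA_7 they were at 39.2 and 9.27 CPM. Without both sets of cells, an alternative chosen after seeing the data, Cfb was at -0.63 (-1.05 to -0.17) and 7 of 9 members were at least 2-fold lower, where 4.82% of 11663 genes were. The 7 were the 6 above and C1qb, which over all dendritic cells was at 1.87 and 1.31 times the lymphocyte level in AAA_14 and AAA_7. The ratio of C4b, -4.58 (-5.21 to -4.03) over all dendritic cells, was 2.74 with a mitochondrial limit of 5%.

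Other complement genes were followed in a list of 50. In phagocytes 26 had at least 10 UMIs, of which 4 were at least 2-fold higher in AAA_14 than in AAA_7, where 7.68% of all genes were, and 4 lower, where 3.80% were, with a median of 0.05 beside 0.10. Among the strongest by level were Calr (calreticulin, a C1q-binding chaperone) at 575 and 448 CPM, Itgam and Itgb2 (the chains of complement receptor CR3) at 321 and 337 CPM and at 184 and 184 CPM, Lrp1 at 149 and 186 CPM, and Cd93 at 143 and 153 CPM. C1s1, a protease of the C1 complex, had 34 and 2 UMIs and a log2 ratio of 2.64 (0.97 to 6.04), and Serping1, the C1 inhibitor, 35 and 3 UMIs and 2.19 (0.73 to 4.74). Both were low, with C1s1 at 2.79 and 0.365 CPM and Serping1 at 2.88 and 0.547 CPM. Phagocytes held 34 of the 1213 C1s1 UMIs of AAA_14. The part of phagocytes with fibroblast markers in both ratios was not tested. Cr2, a B cell receptor for C3 fragments, was at 7.73 and 3.10 CPM, with a ratio of 1.28 (0.56 to 2.16) and 294 and 282 CPM in B cells of the same libraries. Lower in AAA_14 were Cfd, encoding factor D, at -2.09 (-2.80 to -1.43), C2 at -1.28 (-1.75 to -0.81) and the inhibitor Cd55 at -1.06 (-1.32 to -0.81). Cfd was at 2.38 and 10.2 CPM in AAA_14 and AAA_7 phagocytes, beside 2.32 and 17.6 CPM in B cells. Cd55 was at 21.9 and 45.8 CPM, beside 212 and 328 CPM in B cells. The part of free RNA in these ratios was not tested.

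In neutrophils, the CR3 gene Itgam was at 514, 374 and 657 CPM in AAA_14, AAA_7 and Sham, Itgb2 at 333, 251 and 454 CPM, Calr at 96.8, 114 and 57.1 CPM, and Cr1l at 76.6, 62.7 and 57.1 CPM. Cd55, which speeds decay of C3 convertases, was at 54.6, 12.7 and 112 CPM, with log2 ratios of -1.05 (-1.49 to -0.56) for AAA_14 over Sham, -3.11 (-4.03 to -2.32) for AAA_7 over Sham and 2.07 (1.39 to 2.91) for AAA_14 over AAA_7. C5ar2, the other C5a receptor, was at 46.8, 71.7 and 25.1 CPM, with 1.46 (0.61 to 2.56) for AAA_7 over Sham, so it stood highest in AAA_7 as C5ar1 did. The ficolin gene Fcnb was at 47.8 CPM in AAA_14 and 6.72 CPM in AAA_7, a ratio of 2.76 (1.87 to 3.98), and had 2 UMIs in Sham, a ratio of 3.07 (1.51 to 6.44) for AAA_14 over Sham. Itgax and Cd93 were higher in AAA_7 than in AAA_14, at -1.11 (-1.60 to -0.61) and -1.04 (-1.52 to -0.54). Both were also higher in AAA_7 than in Sham, at 3.03 (1.43 to 6.42) and 1.24 (0.25 to 2.59). Itgax was also higher in AAA_14 than in Sham, at 1.92 (0.34 to 5.30). C1rl was at 1.58 (0.38 to 3.39) for AAA_14 over AAA_7. Cr2 was at 21.7, 6.72 and 4.56 CPM. Of the measured genes of the list, 7 of 17 were at least 2-fold higher in AAA_14 than in Sham, where 19.0% of all genes were, and 1 lower, where 7.35% were. With genes at 0 UMIs in Sham at their bound, 4 of 17 were higher, where 10.8% were. For AAA_7 over Sham 5 of 13 were higher, where 26.3% were, or 4 of 13 at the bound, where 24.0% were, and 2 lower, where 13.9% were. For AAA_14 over AAA_7, 5 of 18 were higher, where 16.3% were, and 3 lower, where 12.8% were, so the last count was near that of all genes.

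In B cells Cr2 was at 294, 282 and 128 CPM in AAA_14, AAA_7 and Sham, with log2 ratios of 1.20 (0.98 to 1.43) and 1.14 (0.86 to 1.42) for AAA_14 and AAA_7 over the shared Sham library. Cd55 ran the other way, at 212, 328 and 459 CPM, with -1.11 (-1.24 to -0.98) for AAA_14 over Sham. Cd93 was at 14.7, 16.6 and 37.7 CPM. Calr, C1qbp, Cr1l and Itgb2 completed the strongest genes of B cells, with Calr at 393, 345 and 296 CPM. In T cells, Calr was at 338, 235 and 208 CPM, Itgb2 at 150, 136 and 103 CPM, C1qbp at 97.9, 89.5 and 139 CPM and Cd55 at 37.9, 28.4 and 52.7 CPM. Cd93 was at 9.87, 17.4 and 2.38 CPM in T cells. In NK cells, Itgam was at 132, 137 and 60.3 CPM and Itgax at 150, 199 and 91.9 CPM, with log2 ratios of Itgam of 1.10 (0.43 to 1.89) and 1.16 (0.47 to 1.95) for AAA_14 and AAA_7 over Sham. Cr1l was at 122, 55.4 and 86.1 CPM there, with 1.12 (0.53 to 1.79) for AAA_14 over AAA_7. In dendritic cells 11 of 20 measured genes of the list were at least 2-fold lower in AAA_14 than in AAA_7, where 6.79% of all genes were, and 0 higher, where 9.69% were. Without the cells with fibroblast markers 4 of 16 were lower, where 4.82% were, and 0 higher. Of the 11, Serping1 had 7 UMIs in AAA_14 and 55 in AAA_7, all 55 in the 5 cells with fibroblast markers. Cfd had 11 UMIs in AAA_14 and 5026 in AAA_7, of which 4902 were in the same 5 cells, and Clu had 106 and 379 UMIs, of which 349 were in those 5 cells. Lrp1, with 90 UMIs in AAA_14 and 82 in AAA_7, was also lower in AAA_14, at -1.97 (-2.42 to -1.52), and at -1.23 (-1.76 to -0.68) without those cells.

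Summed over all cells, 23 of 37 measured genes of this list were at least 2-fold higher in AAA_14 than in Sham, where 29.9% of all genes were, and 2 lower, where 8.54% were, with a median of 1.43 beside 0.37. With genes at 0 UMIs in Sham at their bound, 21 of 37 were higher, where 23.6% were. For AAA_7 over Sham 18 of 27 were higher, where 26.8% were, or 18 of 27 at the bound, where 26.1% were, and 4 lower, where 10.3% were, with a median of 1.998 beside 0.23. Cfd, Fcna (ficolin A), C6 and Vsig4 (a macrophage receptor for C3 fragments) had 4222, 1344, 505 and 133 UMIs in AAA_14, 5139, 614, 184 and 100 in AAA_7, and 0 each in Sham. Of the 5139 Cfd UMIs of AAA_7, 4902 were in the 5 dendritic cells with fibroblast markers. Against a floor of 3 counts in Sham, Fcna was at least 52.6-fold higher in AAA_14 and at least 94.0-fold higher in AAA_7. Lower than in Sham was Cd55, at 69.2 CPM in AAA_14 and 61.5 CPM in AAA_7, against 162 CPM in Sham. For AAA_14 over AAA_7, 8 of 38 were higher, where 11.2% of all genes were, or 6 of 38 with genes at 0 UMIs at their bound, and 4 lower, where 6.09% were. The median was -0.13 beside 0.10, and the genes included C1s1 at 1.18 (0.93 to 1.46), Clu at -1.76 (-1.91 to -1.60) and Vsig4 at -1.56 (-1.94 to -1.17). Of the 648 Clu UMIs of AAA_7, 349 were in the 5 dendritic cells with fibroblast markers.

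The genes most like each member were ranked by Pearson's r of log2(CPM + 10) over 52 cluster-by-library profiles, among 8967 genes, as a description of profiles that share libraries. For the summed C1q chains the 10 highest included Ms4a7 (0.94), Apoe, Lgmn, Adgre1, Mrc1, Csf1r, C3ar1 (0.91), Ctsb and Clec4a1, of which Ms4a7, Apoe, Adgre1, Mrc1 and Csf1r were also markers used to name clusters. C1qa went with C1qb at 0.99. C3ar1 was most like Adgre1 (0.97), Ms4a7 and Msr1, and C5ar1 was most like its fellow receptor C5ar2 (0.96), Fcgr3 and Slc11a1. C3 was most like Dram1 (0.95), Pla2g4a and App, and Cfp most like Pirb (0.93), Cd68 and Asah1. Cfb was most like Cd302 (0.94), Acp2 and Nupr1, and Cp (0.93) and Epb41l1 were among the 3 most like C4b. Among the members themselves, C1qa and C3ar1 were at 0.94, Cfb and C4b, neighbours on chromosome 17, at 0.90, and C1qa and C3 at 0.51.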

How the data were processed

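The authors deposited raw UMI counts from Cell Ranger 6.1.2, per the file headers, and Seurat and mm10 are named, without a role, in the submitters' processing notes. No source used here states counting settings or an earlier removal of doublets. The members and lists were chosen with earlier results of these data known. Barcodes with at least 200 genes and at most 10% mitochondrial UMIs were kept. In scanpy 1.11.5, the automatic Scrublet threshold called 0, 0 and 2 doublets in AAA_14, AAA_7 and Sham, so the highest scores were removed at 0.8% per 1000 cells (224, 83 and 12 cells) before classing; they stay in sums over all cells. From 2000 variable genes without complement genes, 30 components and 15 neighbours, leidenalg 0.10.2 gave 31 clusters at a resolution of 1.

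Clusters were named from fixed markers where at least 3 were found in 10% of cells, with a score floor of 100 CPM; a cluster stayed unnamed where a second class reached 0.8 of the best score. These limits were set after the clusters were seen and left 16, 5 and 72 cells of AAA_14, AAA_7 and Sham unnamed. Names rebuilt in this way can differ from the study's. UMIs of each class were summed within a library and scaled by their total (CPM, counts per 1000000, with exact Poisson intervals); shares have exact Clopper-Pearson intervals. Log2 ratios have 0.5 counts added and an exact conditional binomial interval, for classes of at least 50 cells and genes of at least 10 UMIs in both libraries together; the ratios were tested on simulated data. Intervals and floors cover counting error only, not variation between mice, and depth per cell differed between libraries. Named besides the members were, from 50 complement genes, the 6 highest per class and those at least 2-fold apart with an interval excluding 0 and at least 30 UMIs, up to 6 in each direction, of which the text gives most; some genes that these rules or the likeness ranking would name are not reported here. Likeness used genes with at least 500 UMIs and profiles of at least 30 cells. Gene positions are from GENCODE vM21, which held 99.6% of the gene identifiers.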

Additional observations from a re-analysis of the deposited data

Results flagged for a closer look

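C5ar1 moved in opposite directions in 2 cell classes under the same contrast: for AAA_14 over AAA_7 its log2 ratio was 0.277 (0.19 to 0.36) in phagocytes and -1.33 (-1.43 to -1.23) in neutrophils. With 1 library per group the difference between the classes was not tested. The mix of clusters in both classes differed between the libraries. Within phagocyte clusters the ratio ran from -0.28 (-1.12 to 0.86) in cluster 11 to 0.59 (0.31 to 0.90) in cluster 13. Its mean, with clusters weighted equally, was 0.15, and 5 of 7 clusters were above 0. Within neutrophil clusters it was -0.82 (-0.98 to -0.67) in cluster 2, -0.48 (-0.95 to 0.07) in cluster 6 and -0.30 (-0.80 to 0.30) in cluster 14.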

How the results depend on the processing

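The median ratio of the 9 genes in phagocytes stayed above 0 under all 15 alternatives tried, between 0.18 and 0.32. Over all cells it stayed within 5.34 to 8.25 for AAA_14 over Sham and within 5.70 to 9.04 for AAA_7 over Sham, in 12 alternatives each, where that for AAA_7 was 9.04 without the top cell of each gene and 8.67 without stromal clusters, alternatives of which the second was chosen after seeing the data. In neutrophils the medians were 0.56 for AAA_14 over Sham and 0.72 for AAA_7 over Sham with 5 counts added, and between -1.89 and -0.55 for AAA_14 over AAA_7. In dendritic cells the median was 0.51, above 0, with each cell classed from its own markers, -0.21 with a mitochondrial limit of 5% and -0.60 with cells thinned to 1000 UMIs. Of the single-gene ratios whose interval excluded 0, 18 changed sign under at least 1 alternative, in 32 values, and of those whose interval held 0, 19 did, in 41 values. Values at least 2-fold apart that changed sign were, with the limit of 5%, those over Sham in all cells for C5ar1 (-1.06 for AAA_14, -0.27 for AAA_7) and C3 (-0.29 for AAA_7), those of AAA_14 over AAA_7 for C4b in dendritic cells (2.74), and for C1qb (0.76), C1qc (0.58) and C5ar1 (0.42) in T cells. C4b in dendritic cells was also above 0 with a limit of 20% (0.040), with no limit (0.43), with at least 500 genes (0.45) and at a resolution of 2 (0.22), and C3 there with no limit (0.072). With each cell classed from its own markers, dendritic cells changed sign for C1qa (0.40), C1qc (0.68), C5ar1 (0.82) and C4b (4.55), T cells for C1qb (0.25) and C1qc (0.56), and B cells for C3 (1.09), Cfb (0.43) and C4b (0.58). Below 2-fold, dendritic cells also turned for Cfb (0.51) and C1qb (0.93) with that classing, for both when thinned to 1000 UMIs (0.14 and 0.20) and for C1qb with the limit of 5% (0.30), and all cells for C1qb and C3 of AAA_14 over AAA_7. With 5 counts added, neutrophils of AAA_14 over Sham were at -1.50 for C3ar1 and Cfb and at -0.97 for C4b. The cause was not tested. No paired analysis was possible because each group is 1 library. The small number of Sham cells limits its values: 0 of its 1235 cells allows a share of up to 0.243%, and its phagocytes were 11 cells.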

Other observations

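Barcodes above the mitochondrial limit of 10% entered no comparison except the alternatives with a limit of 20% or with no limit. Those with 10 to 20% mitochondrial UMIs had C1qa at 310 CPM in 3056 barcodes of AAA_14, 1109 CPM in 128 of AAA_7 and 0.147 CPM, 1 UMI, in 1820 of Sham. Those over 20% had it at 399 CPM in 1683 barcodes of AAA_14, 1370 CPM in 116 of AAA_7 and 2.41 CPM, 2 UMIs, in 656 of Sham. In the same 2 ranges C3ar1 had 326 and 139 UMIs in AAA_14, 22 and 10 in AAA_7, and 5 and 0 in Sham. The Sham barcodes left out by the limit thus held few C1qa or C3ar1 UMIs. For C3ar1 their 5 UMIs, at 0.737 CPM in the range of 10 to 20%, were still more than the 3 UMIs, at 0.501 CPM, of the 1235 kept Sham cells.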
